A study of Mus musculus with 32 samples.

Results

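The genes described here encode the parts of the major histocompatibility complex (MHC) machinery of the mouse: the class I heavy chains H2-K1, H2-K2 and H2-D1, the class I light chain B2m, the peptide transporter subunit Tap1, the class II chains H2-Aa, H2-Ab1 and H2-Eb1, and the class II invariant chain Cd74. They were taken as all probe sets on the array whose single gene symbol in the platform annotation is 1 of these 9 names. That gave 14 probe sets of 12422 that are not controls, 3 for H2-K1, 3 for H2-D1, 2 for Tap1 and 1 for each of the other genes. Of the 14, 9 were bright enough to be tested, and the other 5 had a mean signal under the limit of 21.3.

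Class I molecules stand on the surface of most nucleated cells and hold peptides that Tap1 and its partner carry into the endoplasmic reticulum; the heavy chain needs B2m to reach the surface. Class II molecules are made mainly by antigen-presenting cells, in the brain above all by activated microglia and by cells at its borders, and Cd74 guides them to the compartment where they load peptide. Class I genes are also transcribed in neurons of the hippocampus, where they have been studied for roles in synapse remodelling. The heavy chain and class II genes lie together in the H2 complex on chromosome 17, are among the most polymorphic genes of the mouse, and are inherited in blocks called haplotypes, each named by a letter, whereas B2m lies on chromosome 2.

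The stretch upstream of each start is shown for 4 of the genes. The choice sets the class I heavy chains H2-K1 and H2-D1 beside their light chain B2m and H2-Eb1, the brightest class II chain described here. They are RefSeq sequences of build GRCm38.p6, which is the C57BL/6J strain with haplotype b, from 250 bases before the annotated start to 30 after it. They lie at chr17:34000318-34000597 on the minus strand (H2-K1), chr17:35262844-35263123 on the plus strand (H2-D1), chr2:122147437-122147716 on the plus strand (B2m) and chr17:34305617-34305896 on the plus strand (H2-Eb1). H2-K1 has 2 RefSeq starts, of which the one listed at the head of the table was used. Capitals mark matches, on either strand, to the NF-kB pattern (GGGA, 4 free bases, CC), TTTCNNTT (part of interferon-response elements), TGACG (the core of a cAMP-response element) and ATTGG (an inverted CCAAT box).
H2-K1: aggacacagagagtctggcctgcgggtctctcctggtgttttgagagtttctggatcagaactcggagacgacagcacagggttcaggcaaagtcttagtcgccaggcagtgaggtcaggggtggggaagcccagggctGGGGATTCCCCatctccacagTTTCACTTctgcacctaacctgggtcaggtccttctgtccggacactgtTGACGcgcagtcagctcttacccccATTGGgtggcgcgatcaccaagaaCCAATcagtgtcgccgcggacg
H2-D1: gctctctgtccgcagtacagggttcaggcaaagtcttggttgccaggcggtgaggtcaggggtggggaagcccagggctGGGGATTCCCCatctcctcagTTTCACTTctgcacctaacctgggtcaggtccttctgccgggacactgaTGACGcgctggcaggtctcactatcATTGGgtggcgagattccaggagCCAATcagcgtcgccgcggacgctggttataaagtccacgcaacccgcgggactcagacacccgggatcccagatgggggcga
B2m: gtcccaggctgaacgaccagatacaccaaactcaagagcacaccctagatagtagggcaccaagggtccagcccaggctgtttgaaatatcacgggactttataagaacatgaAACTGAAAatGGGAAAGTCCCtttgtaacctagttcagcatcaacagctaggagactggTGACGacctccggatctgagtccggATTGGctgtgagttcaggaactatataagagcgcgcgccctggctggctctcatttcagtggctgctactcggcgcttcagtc
H2-Eb1: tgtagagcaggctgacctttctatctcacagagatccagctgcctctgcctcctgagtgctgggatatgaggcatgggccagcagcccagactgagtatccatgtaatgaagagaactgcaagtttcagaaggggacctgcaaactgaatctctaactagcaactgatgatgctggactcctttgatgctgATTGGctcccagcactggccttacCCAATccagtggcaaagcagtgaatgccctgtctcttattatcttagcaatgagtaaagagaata

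H2-K1 and H2-D1 were identical at 195 of 219 aligned bases (89%), against 41.4% for H2-K1 and B2m and 45.1% for H2-K1 and H2-Eb1. The NF-kB pattern matched 2 times, 1 base apart, in H2-K1, H2-D1 and B2m and not in H2-Eb1, and 19.1% of 27025 mouse promoters of this length hold it. TTTCNNTT and TGACG matched 1 time each in H2-K1, H2-D1 and B2m and not in H2-Eb1, with 23.3% and 20.1% of all promoters holding them. ATTGG matched in all 4 sequences and in 36.6% of promoters. No match overlapped a match to another motif. These motifs did not divide class I from class II genes: the class II gene H2-Aa, whose sequence is not printed, held all 4 of them, and Tap1 held TGACG and ATTGG only. A match is a description of the letters and not a measured site. RefSeq entries were matched for 6 of the 9 genes.

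Hippocampal RNA of untreated mice was measured on 32 Affymetrix U74Av2 arrays, 4 for each of 8 inbred strains: C57BL/6J, hippocampus_129S1SvImJ (the strain is named here as in its array titles), DBA/2J, BALB/cByJ, C3H/HeJ, A/J, SJL/J and FVB/NJ. The labels name neither age nor sex. Each strain is 1 pool of RNA from 6 mice, from which cRNA was prepared 2 times, and each preparation was put on 2 arrays, so that arrays 1 and 2 carry preparation 1 and arrays 3 and 4 preparation 2. For FVB/NJ the assignment is in doubt, because the title of its array 2 carries the day that the titles of 6 other strains give for array 3. With array 2 of FVB/NJ taken with preparation 2 instead, 3 of the 9 tested probe sets passed the F-test in place of 4, H2-K2 being lost. Strain differences are therefore read against the spread between preparations of 1 pool, and no spread between animals can be given.

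The haplotype of each strain is general knowledge of these strains and is not in the sample labels. C57BL/6J carries b and hippocampus_129S1SvImJ the b-type haplotype bc. BALB/cByJ and DBA/2J carry d, C3H/HeJ k, FVB/NJ q and SJL/J s. A/J carries a, a recombinant with k alleles from H2-K1 through the class II genes and d alleles at H2-D1. Strains were grouped accordingly, with A/J beside C3H/HeJ on the K side and beside BALB/cByJ and DBA/2J on the D side, which is the side that applies to H2-D1. A question the design allows is whether strains that share a haplotype also share the level of these genes. On an array, a base difference under a probe and a difference in transcript level cannot be told apart. In bulk tissue, fewer cells of a type and less RNA per cell cannot be told apart either.

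Values are log2 of the deposited signal unless a linear signal is named, and a mean ± SD is over the 2 preparations of a strain (n = 2). The arrays had a common scale, with 2%-trimmed mean signals between 100.05 and 100.07. On 11 arrays a set of sense-strand control probe sets read between 6.95 and 7.84, against 4.91 to 5.64 on the other 21. The 11 came from BALB/cByJ (its whole set of 4), from preparation 1 of SJL/J, C3H/HeJ and A/J, and from FVB/NJ (array 1), so results on BALB/cByJ are also given without that strain where this changed them. Without it 3 of the 9 tested probe sets passed the F-test, H2-K2 being lost. The neuronal gene Snap25 was high in every strain, with means between 11.85 and 12.24. The strain means of the T-cell gene Cd3e lay between 2.86 and 3.92 and those of the B-cell gene Cd79b between 2.13 and 3.89, under the limit of 4.41, although single arrays reached 5.82 and 5.60.

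The tested class I heavy chain probe sets, except 97700_at of H2-K1, differed between strains. The class II genes, Cd74 and Tap1 did not pass the test. The F-test across the 8 strains (limma, Benjamini-Hochberg adjusted p) called 4 of the 9 tested probe sets: 93120_f_at of H2-K1, 93714_f_at of H2-K2, and 97540_f_at and 101886_f_at of H2-D1. Over all 7453 tested probe sets it called 4.58%. With the preparation number as a block it called 5 of the 9, B2m being added, against 18.9% of all. Grouped by annotated gene, with the brightest probe set standing for each, 3 of 7 tested genes were called. Their median range between the highest and lowest strain, over the 7, was 1.57. For all 5660 tested genes the share called was 4.1% and the median range 0.66.

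H2-K1, a classical class I heavy chain, was highest in DBA/2J and lowest in C3H/HeJ by its brightest probe set, 93120_f_at. The 4 DBA/2J arrays read 7.82, 7.58, 7.91 and 7.89. The 4 C3H/HeJ arrays read 6.57, 6.56, 6.42 and 6.56. All 4 C3H/HeJ arrays lay below the other 28, of which the lowest read 6.67, while DBA/2J overlapped the rest by 1 array, its lowest of 7.58 standing under a BALB/cByJ array at 7.61. BALB/cByJ read 7.33, 7.09, 7.61 and 7.38, and C57BL/6J read 7.17, 7.26, 7.37 and 7.35. FVB/NJ read 7.51, 6.99, 7.12 and 7.11. These strains formed a middle group that ran down through A/J (7.05, 7.04, 6.94 and 7.20) and hippocampus_129S1SvImJ (6.85, 6.87, 6.97 and 7.08) to SJL/J (6.72, 6.67, 6.99 and 6.95). The mean was 7.80 ± 0.14 in DBA/2J and 6.53 ± 0.05 in C3H/HeJ, a 2.42-fold difference (log2 difference 1.27, SE 0.18, adjusted p = 0.0018 in the contrast of the pair). The F-test gave an adjusted p of 0.01, and 0.071 without preparation 2 of DBA/2J.

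Of the 28 pairs of strains, 5 passed for this H2-K1 probe set. Besides DBA/2J against C3H/HeJ they were DBA/2J against hippocampus_129S1SvImJ (adjusted p = 0.026) and SJL/J (adjusted p = 0.011), and C3H/HeJ against BALB/cByJ (adjusted p = 0.035) and C57BL/6J (adjusted p = 0.047). With the preparation block 10 pairs passed, BALB/cByJ against DBA/2J among them (adjusted p = 0.042), and with array 2 of FVB/NJ in preparation 2 only DBA/2J against C3H/HeJ and SJL/J. Neighbours in the order of means from BALB/cByJ down to SJL/J did not differ beyond their spread. The strain accounted for 84.3% of the variance over the 32 arrays. On each of the 4 days with at least 7 arrays, DBA/2J was the highest strain and C3H/HeJ the lowest.

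Of the other H2-K1 probe sets, 97700_at ordered the strains differently, while the dim 97125_f_at shared the highest and the lowest strain with 93120_f_at. The probe set 97700_at was highest in SJL/J, with 5.61, 5.51, 6.18 and 6.19, and lowest in C57BL/6J, with 4.30, 5.29, 3.19 and 4.15, and its F-test gave an adjusted p of 0.42. Its strain means correlated with those of 93120_f_at at r = -0.42 over the 8 strains. The probe set 97125_f_at, under the limit with a mean signal of 19.8, was highest in DBA/2J (5.39 ± 0.16) and lowest in C3H/HeJ (3.26 ± 0.51), and its means correlated with those of 93120_f_at at r = 0.95. The correlations are descriptions that share the same arrays and pools. The f suffix marks a probe set that can read several members of a gene family. It is carried by 93120_f_at and 97125_f_at, by the H2-K2 probe set and by every H2-D1 probe set, so their gene assignment is uncertain. All probe sets called by the F-test are among them. Of the probe sets named H2-K1, 97700_at disagreed with both others on the order of the strains.

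H2-D1, the classical class I heavy chain at the other end of the complex and read by 3 probe sets, was highest in DBA/2J and lowest in C3H/HeJ by its brightest, 97540_f_at. On it the DBA/2J arrays read 7.95, 8.25, 7.60 and 7.75, and the C3H/HeJ arrays read 6.40, 5.77, 6.02 and 6.04. BALB/cByJ read 7.11, 7.66, 7.39 and 7.03. Again all C3H/HeJ arrays lay below the other 28, the lowest of which read 6.51, and DBA/2J overlapped the rest only with its lowest array, under a BALB/cByJ array at 7.66. The 5 other strains had means between 6.62 and 6.96, and their 20 arrays did not reach 7.20. The means were 7.89 ± 0.30 in DBA/2J and 6.06 ± 0.04 in C3H/HeJ, a 3.56-fold difference (log2 difference 1.83, SE 0.19, adjusted p = 1.1e-04). The F-test gave an adjusted p of 0.0011, and strain accounted for 86.4% of the variance.

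For 97540_f_at 8 pairs of strains passed. DBA/2J was higher than every strain except BALB/cByJ, by 0.93 over C57BL/6J (adjusted p = 0.027) up to 1.83 over C3H/HeJ. C3H/HeJ was lower than BALB/cByJ by 1.24 (adjusted p = 0.0044) and lower than C57BL/6J by 0.90 (adjusted p = 0.022). BALB/cByJ and DBA/2J, which share d, differed by 0.59 (SE 0.19, adjusted p = 0.081, and 0.012 with the preparation block, which called 15 pairs). A/J, with d alleles at this locus, was 1.06 lower than DBA/2J (adjusted p = 0.0094), and read 6.83 ± 0.00, the same as FVB/NJ and hippocampus_129S1SvImJ to 2 decimals.

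The second H2-D1 probe set, 101886_f_at, ordered the strains differently. FVB/NJ was highest, with 8.02, 7.11, 7.53 and 7.62, followed by BALB/cByJ with 6.76, 7.02, 7.54 and 7.14 and DBA/2J with 6.78, 7.20, 7.02 and 7.21. SJL/J was lowest, with 6.18, 5.91, 6.28 and 6.18, next to C3H/HeJ with 6.38, 5.82, 6.29 and 6.53. C57BL/6J (6.79, 6.96, 6.67 and 7.04), hippocampus_129S1SvImJ (6.47, 6.74, 6.84 and 6.85) and A/J (6.83, 7.02, 6.61 and 6.54) lay between them. FVB/NJ and SJL/J did not overlap, while the lowest FVB/NJ array lay within the range of BALB/cByJ and DBA/2J. FVB/NJ was 2.70-fold above SJL/J (7.57 ± 0.01 against 6.14 ± 0.13, log2 difference 1.43, SE 0.21, adjusted p = 0.0047) and 2.49-fold above C3H/HeJ (adjusted p = 0.0063). BALB/cByJ and DBA/2J were each above SJL/J, by 0.98 (adjusted p = 0.035) and 0.92 (adjusted p = 0.047). The preparation block called 10 pairs in place of these 4. With array 2 of FVB/NJ in preparation 2 the FVB/NJ mean was 7.72 ± 0.42, and of the pairs only FVB/NJ against SJL/J (adjusted p = 0.0094) and C3H/HeJ (adjusted p = 0.011) passed. The F-test gave an adjusted p of 0.0085.

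The third H2-D1 probe set, 97541_f_at, was dim, with a mean signal of 6.17 and so under the limit. The 3 strains with d alleles at H2-D1 had the 3 highest means: DBA/2J 4.67 ± 0.62, A/J 3.72 ± 0.88 and BALB/cByJ 3.60 ± 0.22. The other 5 strains had means between 1.08 (C3H/HeJ) and 2.48 (FVB/NJ). By array, the DBA/2J values ran from 3.96 to 5.12, the A/J values were 2.63, 3.56, 4.55 and 4.15, and the BALB/cByJ values 4.49, 3.02, 4.07 and 2.81. Of these 12 arrays 9 lay above all 20 arrays of the other strains, which ran from 0.00 to 3.43 with a median of 1.91, and the other 3 overlapped them. In a fit with no filter on low signal, which tested 12422 probe sets and called 2.6% of them, the F-test gave an adjusted p of 0.018 for 97541_f_at. This F-test compares strains and does not test haplotype. The D-side haplotype test without a filter did not pass after adjustment.

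H2-K2, a class I locus beside H2-K1, was read by 93714_f_at. It was highest in DBA/2J, with 7.98, 6.84, 6.01 and 6.30, and in C57BL/6J, with 5.82, 6.48, 7.09 and 5.70. It was lowest in SJL/J, with 5.80, 4.39, 3.90 and 3.81. Arrays of 1 strain were far apart, as in C3H/HeJ, which ran from 3.85 to 6.94, so that DBA/2J overlapped several other strains. DBA/2J was 3.8-fold above BALB/cByJ (log2 difference 1.93, SE 0.48, adjusted p = 0.034), its partner in haplotype d, and 4.95-fold above SJL/J (adjusted p = 0.025). DBA/2J was also above hippocampus_129S1SvImJ (adjusted p = 0.045) and A/J (adjusted p = 0.038). The F-test gave an adjusted p of 0.045, which passed in 25 of 58 other settings and ran from 0.011 to 0.18 over them. It was lost in 29 of 48 settings that left out an array or a preparation of any of the 8 strains, and strain accounted for 35.5% of the variance. It was also lost without BALB/cByJ (adjusted p = 0.068) and with array 2 of FVB/NJ in preparation 2 (adjusted p = 0.099), where 0 of the 28 pairs passed.

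**Figure D1:**
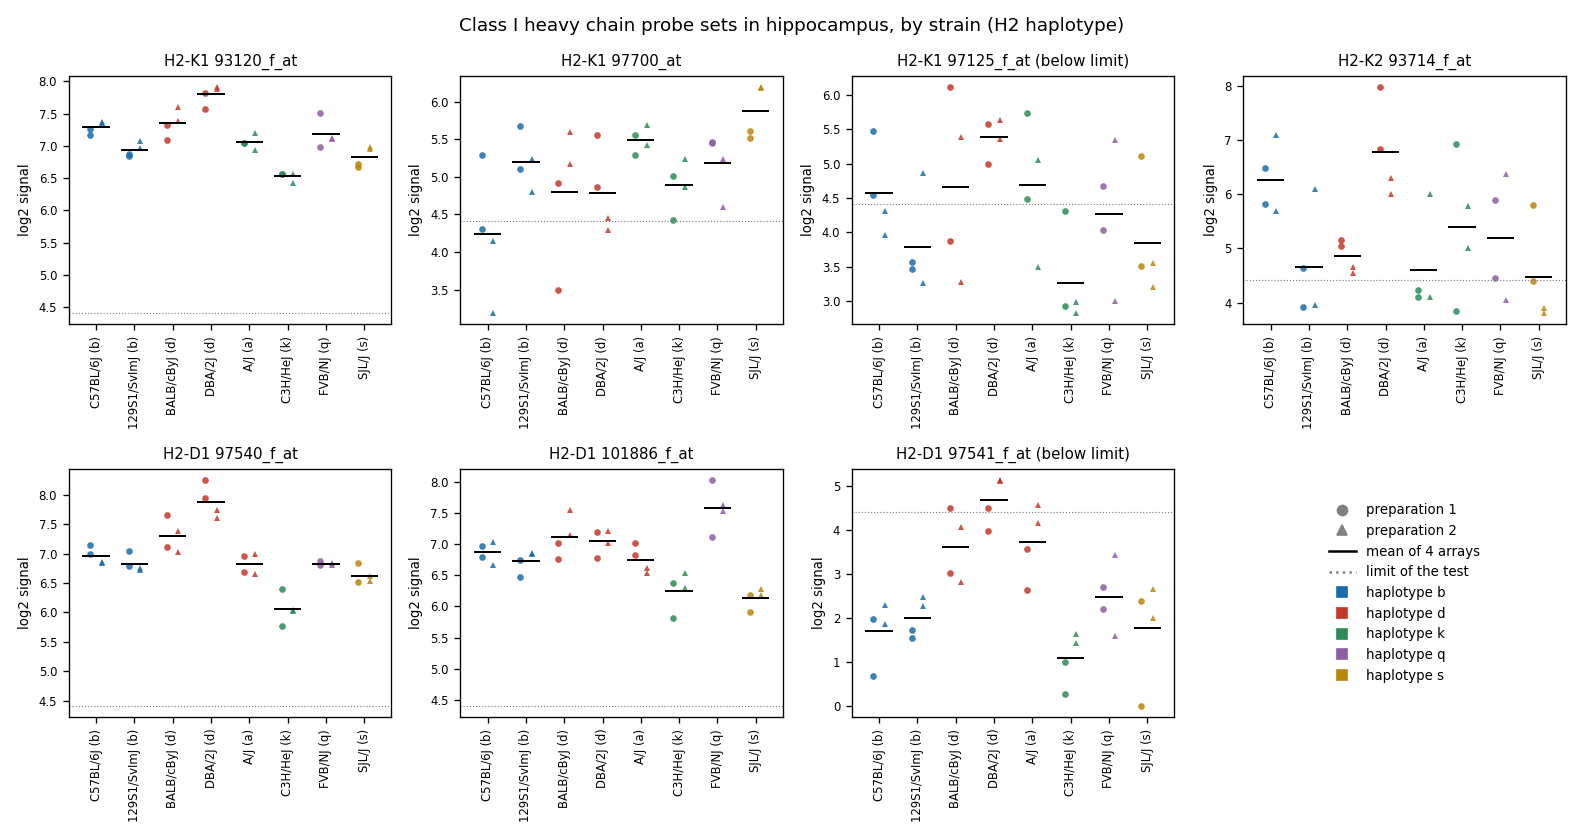
Log2 signal (vertical axes) of the 7 class I heavy chain probe sets on each array of the 8 strains; circles are arrays of preparation 1, triangles of preparation 2, bars the mean of 4 arrays, colours the haplotype (D side for H2-D1, K side for the others) and the dotted line the limit of the test at 4.41. DBA/2J is highest and C3H/HeJ lowest for H2-K1 93120_f_at and H2-D1 97540_f_at, and the 3 strains with d alleles stand highest for H2-D1 97541_f_at.

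Set against haplotype, with the strain as the unit, no tested probe set of these genes passed after adjustment. The haplotype F-tests compare 5 haplotype means over 8 strain means with 3 residual degrees of freedom, and each of them called 1 of 7453 probe sets (0.0134%). At an unadjusted p under 0.05 the limma test found 1 of the 9 on the K side, against 2.08% of all, and 2 of the 9 on the D side, against 1.41%. The exact permutation test over strains gave a p of at most 0.05 to 0 of 9 on the K side (3.21% of all) and to 1 of 9 on the D side (2.11%). The smallest p it can give is 0.0024 on the K side and 0.0018 on the D side.

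The probe set that stood out was 101886_f_at of H2-D1. Haplotype on the D side took 94.3% of the variance between its strain means, with an unadjusted p of 0.0075 by limma (adjusted p = 1) and an exact permutation p of 0.02. The K-side map gave nearly the same, with 91.1%, an unadjusted limma p of 0.01 and an exact permutation p of 0.052. This probe set thus hardly told the maps apart. The d strains read 7.11 in BALB/cByJ, 7.05 in DBA/2J and 6.75 in A/J, and the b strains 6.87 in C57BL/6J and 6.73 in hippocampus_129S1SvImJ. Strains of 1 D-side haplotype differed by 0.22 on average and strains of different haplotypes by 0.61. The largest contrasts were q over s, 1.43 (SE 0.31), and q over k, 1.31 (SE 0.31), and each of those haplotypes was represented by 1 strain on the D side. Leaving out 1 strain at a time, the share stayed between 89.8% and 99.2% and the exact permutation p lay between 0.014 and 0.11. It exceeded 0.05 without hippocampus_129S1SvImJ (0.11), C57BL/6J (0.057), BALB/cByJ (0.067), DBA/2J (0.067) or FVB/NJ (0.052). With 7 strains the test has fewer groupings than the 560 of the full test, so its p-values are coarser. It has 35 without hippocampus_129S1SvImJ or C57BL/6J, 105 without A/J, BALB/cByJ or DBA/2J, and 210 otherwise. A p above 0.05 therefore does not by itself show dependence on the strain left out. A strain left alone in its haplotype is described fully by its own value, so the shares of 7 strains can run high. For 97540_f_at, treated likewise, the share ran from 47.6% (without C3H/HeJ) to 90.5% (without A/J, exact permutation p = 0.17). The share alone is therefore no measure of how well the result holds.

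For 97541_f_at, the dim H2-D1 probe set, D-side haplotype took 93.1% of the variance between strain means and K-side haplotype 61.8%. The exact permutation p was 0.034 on the D side and 0.44 on the K side, and the limma test without a filter gave an unadjusted p of 0.0016 on the D side (adjusted p = 1). Moving A/J from k to d is the only difference between both maps. Without 1 strain at a time the D-side share stayed between 90.8% and 99.1%, and the exact permutation p lay between 0.014 and 0.13. It exceeded 0.05 without hippocampus_129S1SvImJ (0.086), A/J (0.13), BALB/cByJ (0.11), C3H/HeJ (0.052) or C57BL/6J (0.086). The same smaller numbers of groupings apply to these values, and the same limit to the shares. The exact permutation test was not run on dim probe sets outside the genes described here. For 97540_f_at, the bright H2-D1 probe set, D-side haplotype took 70.3%, with an exact permutation p of 0.34, and strains of 1 haplotype differed by 0.56 on average against 0.60 between haplotypes. The 3 probe sets named H2-D1 thus did not order the strains alike, although 97540_f_at and 97541_f_at were both highest in DBA/2J and lowest in C3H/HeJ. The strain means of these probe sets correlated at r = 0.85, against 0.57 and 0.51 with those of 101886_f_at.

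Haplotype took smaller or less certain shares for the other genes. For H2-K1 93120_f_at the K side took 70.6% (exact permutation p = 0.33), and the average difference was 0.44 within and 0.45 between haplotypes. For H2-K2 it took 29.4% (exact permutation p = 0.86), and strains of 1 haplotype differed by 1.45, more than strains of different haplotypes at 0.91. H2-Eb1 had 81.3% on the K side, with an unadjusted limma p of 0.052 and an exact permutation p of 0.19, and 0.047 and 0.15 on the D side, a map that does not describe its locus. B2m, on another chromosome, had 39.4% on the K side (exact permutation p = 0.79). The median share among tested probe sets came to 49.8% for the K side and 44.3% for the D side, since 5 haplotype means describe much of 8 values whatever the gene.

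Compared in pairs, 7 of the 9 tested probe sets differed less between strains of 1 K-side haplotype than between strains of different haplotypes, against 36.8% of all tested probe sets. The 2 that did not were those of H2-K2 and B2m. On the D side 5 of 9 did so, against 28.7%. Several of these differences were small: 0.25 against 0.27 for Cd74 and 0.44 against 0.45 for H2-K1 93120_f_at.

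**Figure D2:**
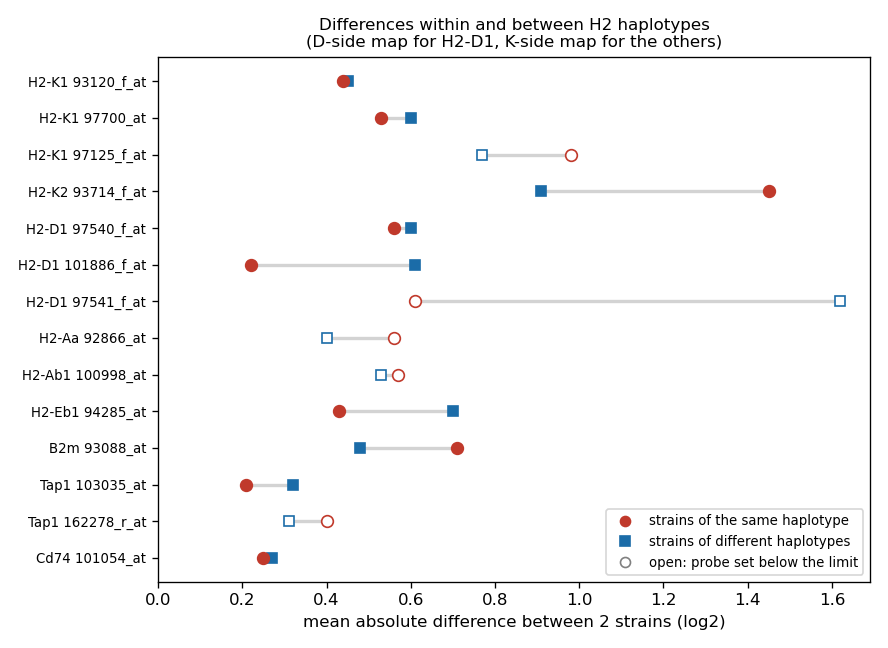
Mean absolute difference in log2 signal (horizontal axis) between strains of the same H2 haplotype (circles) and of different haplotypes (squares) for each of the 14 probe sets (vertical axis), by the D-side map for H2-D1 and the K-side map for the others; open symbols are probe sets under the limit. H2-D1 101886_f_at (0.22 against 0.61) and 97541_f_at (0.61 against 1.62) are far closer within haplotypes, and H2-K2 (1.45 against 0.91) and B2m (0.71 against 0.48) are farther apart within them.

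How many differences were found between strains that share a haplotype turned on the fit. On the K side 3 pairs of strains share a haplotype, and their contrasts gave 2 calls in 27 tests of these probe sets (7.41%), against 2.64% over all tested probe sets. Both were between BALB/cByJ and DBA/2J, for H2-K2 and for B2m. With the preparation block there were 5. They were those 2, H2-K1 93120_f_at and H2-D1 97540_f_at in the same pair, and 97540_f_at between A/J and C3H/HeJ (adjusted p = 0.019). A/J and C3H/HeJ share k on the K side but carry d and k at H2-D1. Their 97540_f_at call is thus between different haplotypes at that locus. With array 2 of FVB/NJ in preparation 2 there were 0 of 27, and without BALB/cByJ 0 of 18 over the other 2 pairs. The 25 pairs with different haplotypes gave 22 calls in 225 tests (9.78%), against 1.45% over all. C57BL/6J against hippocampus_129S1SvImJ and A/J against C3H/HeJ gave 0 calls of 9 each by limma, against 1.61% and 0.483% of all probe sets. For these pairs the differences ran up to 1.62 (H2-K2, C57BL/6J over hippocampus_129S1SvImJ, SE 0.48, adjusted p = 0.16) and 0.78 (H2-K2, C3H/HeJ over A/J, SE 0.48, adjusted p = 1).

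DBA/2J took part in 15 of the 24 calls, over its 7 pairs. That was 20 of 47 with the preparation block and 8 of 14 with array 2 of FVB/NJ in preparation 2. Its contrast with SJL/J alone called 4 of the 9 probe sets, against 1.53% of all. A/J took part in 2, both with DBA/2J. Over all tested probe sets, the contrasts of DBA/2J called 1.34% against hippocampus_129S1SvImJ, 1.38% against A/J, 1.31% against C3H/HeJ, 0.966% against C57BL/6J, 1.27% against FVB/NJ and 5.84% against BALB/cByJ. Those of BALB/cByJ called 1.5% against C3H/HeJ, 7.55% against C57BL/6J, 2.27% against FVB/NJ and 1.34% against SJL/J. FVB/NJ against C3H/HeJ called 0.751%, FVB/NJ against SJL/J 0.335% and C3H/HeJ against C57BL/6J 1.88%. On the D side the 4 pairs that share a haplotype gave 4 calls in 36 tests (11.1%, against 2.63% over all) and the other 24 pairs 20 calls in 216 (9.26%, against 1.4%).

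**Figure D3:**
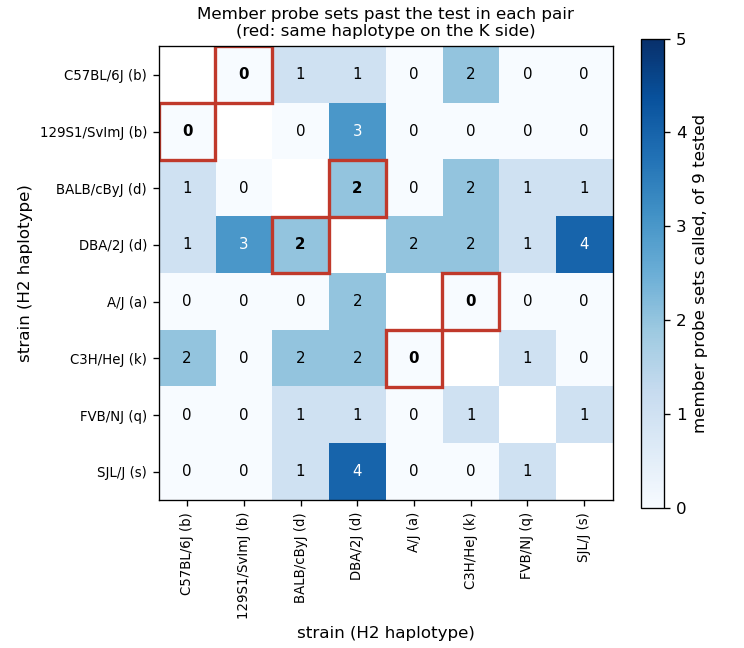
Number of the 9 tested probe sets (colour and digit) past the contrast of each pair of strains (both axes), at a Benjamini-Hochberg adjusted p under 0.05; red frames mark pairs with the same haplotype on the K side. The row of DBA/2J holds most of the calls, up to 4 against SJL/J, and of the 3 framed pairs only BALB/cByJ and DBA/2J has calls (2).

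B2m, the light chain that all class I heavy chains share, did not follow them. Its probe set 93088_at was lowest in BALB/cByJ, with 5.46, 5.84, 5.89 and 6.26, and highest in C57BL/6J, with 7.34, 7.22, 7.61 and 7.54. C3H/HeJ spread from 5.93 to 7.75 and so overlapped both, while the arrays of the 5 other strains lay between 6.37 and 7.62. BALB/cByJ was 2.96-fold below C57BL/6J (5.86 ± 0.30 against 7.43 ± 0.20, log2 difference 1.57, SE 0.27, adjusted p = 0.0043), 2.33-fold below FVB/NJ (adjusted p = 0.032) and 2.13-fold below DBA/2J (adjusted p = 0.035), the last not passing with array 2 of FVB/NJ in preparation 2. The F-test gave an adjusted p of 0.065, and 0.0069 with the preparation number as a block. Without BALB/cByJ, all of whose arrays had the high sense-strand control signal, the range between strains was 0.83 in place of 1.57 and the adjusted p was 0.83. The part of that control signal in the result was not tested. The strain means of B2m correlated with those of H2-K1 93120_f_at at r = 0.08 and of H2-D1 97540_f_at at r = -0.04 over the 8 strains.

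Tap1, a subunit of the transporter that supplies class I with peptides, did not pass. By 103035_at it ran from 3.96 ± 0.94 in C57BL/6J, whose arrays read 3.14, 3.46, 4.36 and 4.89, to 4.82 ± 0.34 in BALB/cByJ, whose arrays read 3.93, 5.24, 4.63 and 5.50. These strains overlapped, the F-test gave an adjusted p of 0.80, and strain accounted for 1.72% of the variance. The dimmer 162278_r_at ran from 3.46 in DBA/2J to 4.53 in BALB/cByJ, with an adjusted p of 0.90 in the fit with no filter.

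H2-Aa and H2-Ab1 had a mean signal under the limit, and H2-Eb1 had strain means from 4.12 to 5.78 around it. H2-Eb1, the chain that pairs with H2-Ea, was highest in SJL/J, with 5.10, 6.32, 5.85 and 5.85, and FVB/NJ, with 5.26, 5.27, 5.63 and 5.27, and lowest in DBA/2J, with 5.15, 3.58, 4.22 and 3.52. In A/J, BALB/cByJ and C3H/HeJ preparation 1 was higher than preparation 2, as with 5.73 against 3.95 in A/J, and the strains overlapped. The F-test gave an adjusted p of 0.50. H2-Aa, the alpha chain of the A molecule, had a mean signal of 4.75 and strain means from 1.8 (C57BL/6J) to 2.88 (BALB/cByJ), with an adjusted p of 0.79 in the fit with no filter.

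H2-Ab1, the beta chain that pairs with H2-Aa, had a mean signal of 9.25. The other strains had means between 2.84 and 3.19, and BALB/cByJ had 4.67 ± 1.37. That strain's arrays read 4.06, 3.34, 5.49 and 5.79, so preparation 2 was above every other array of the series and preparation 1 overlapped them. By their titles, both arrays of that preparation were run on later days than all others except array 4 of FVB/NJ, which read 2.77. Preparation and day cannot be told apart within BALB/cByJ. The adjusted p in the fit with no filter was 0.51, and without BALB/cByJ the range between strains was 0.35 in place of 1.83. The lymphocyte and antigen-presenting cell markers, 17 genes of which 12 were under the limit, were also highest in BALB/cByJ, with a summed linear signal of 686 against 373 (C57BL/6J) to 502 (SJL/J) in the other strains. Sums of single arrays overlapped, with 579 to 817 in BALB/cByJ, 365 to 658 in hippocampus_129S1SvImJ and 418 to 606 in SJL/J. The part of these markers and of the day in the H2-Ab1 value was not tested.

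Cd74, the invariant chain, was above the limit in all 8 strains and did not pass the F-test. Its strain means ran from 4.95 ± 0.24 (A/J) to 5.70 ± 0.11 (hippocampus_129S1SvImJ), with arrays from 3.28 (BALB/cByJ, array 4) to 6.15 (BALB/cByJ, array 1). The adjusted p was 0.90, and none of the variance was assigned to strain. H2-Ea, the alpha chain that some haplotypes lack as a matter of background knowledge, read between 1.62 (C3H/HeJ) and 3.45 (BALB/cByJ), under the limit in every strain, those expected to have the chain included.

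**Figure D4:**
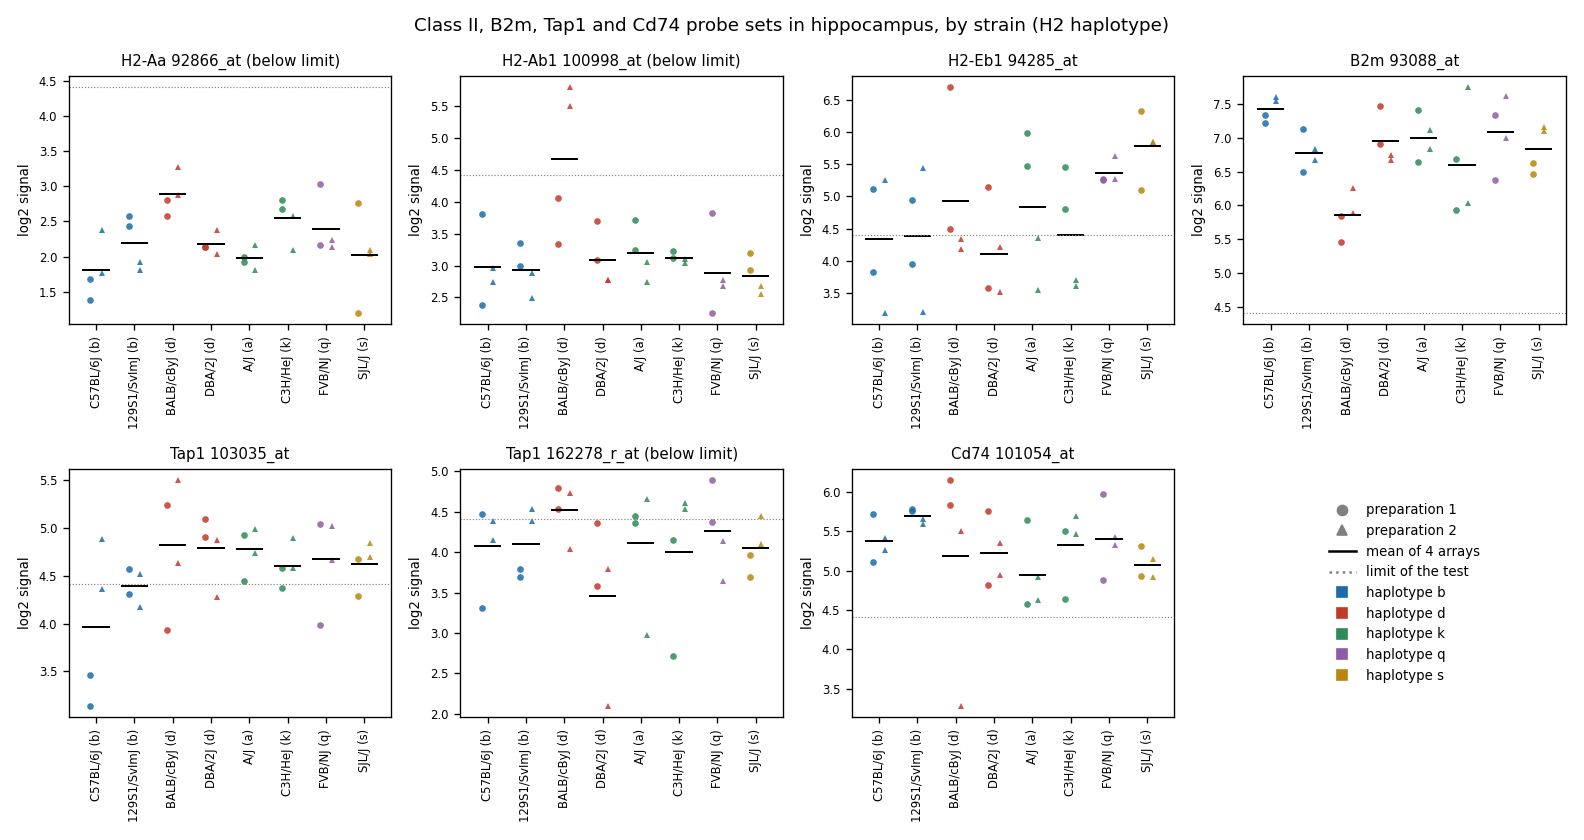
Log2 signal (vertical axes) of the probe sets of H2-Aa, H2-Ab1, H2-Eb1, B2m, Tap1 and Cd74 on each array of the 8 strains, with symbols, colours and the limit at 4.41 as for the class I plot. B2m is lowest in BALB/cByJ (mean 5.86), H2-Aa lies under the limit in every strain, and the strains overlap for Tap1 and Cd74.

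The other genes of the same pathways are read against all 5660 tested genes, of which the F-test called 4.1%, and 18.9% with the preparation block. None of 6 tested class I pathway genes (transporter, tapasin, proteasome and related genes) and none of 8 nonclassical class I genes passed the F-test across strains in limma. Their median ranges were 0.69 and 1.11, and with the block 2 and 0 passed. Of 7 class II pathway genes 1 passed in either fit, the protease Ctss, which trims the invariant chain, with 8.80 ± 0.03 in A/J and 7.99 ± 0.14 in hippocampus_129S1SvImJ (adjusted p = 0.018). None of 7 tested interferon-response genes passed, 1 with the block, 18 of the 25 on the array being under the limit. Of 37 tested genes that lie between H2-K1 and H2-D1 and are on no list, 1 passed: the sialidase Neu1, at 4.78 ± 0.14 in SJL/J and between 5.74 and 6.19 in the other strains (adjusted p = 0.032). That is 2.7% of the 37, and with the block 11 passed (29.7%). Of 12 other tested H2 probe sets with 1 symbol, 0 passed in limma, 2 with the block.

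The summed signal of vessel-cell markers was highest in the same 3 strains as H2-K1 93120_f_at and H2-D1 97540_f_at. Rgs5, 1 of the genes summed, was itself highest in those 3 strains. The summed signal of microglia markers was not highest in them. The summed linear signal of the 9 members was highest in DBA/2J (818) and lowest in C3H/HeJ (432). That of 16 microglia markers was 1440 in DBA/2J and 1480 in C3H/HeJ, within a range from 1320 (SJL/J) to 1680 (C57BL/6J), and 0 of 10 tested passed the F-test in limma, 4 with the block. That of 14 endothelial and pericyte markers was 656 in DBA/2J, 658 in C57BL/6J and 654 in BALB/cByJ, against 533 (A/J) to 598 (hippocampus_129S1SvImJ) in the others, C3H/HeJ having 543. Of 8 tested, 1 passed in either fit, the pericyte gene Rgs5, at 6.64 ± 0.20 in DBA/2J, 6.33 in BALB/cByJ and 6.16 in C57BL/6J against 4.17 to 4.54 in the other strains (adjusted p = 8.6e-04). Vessel-marker sums of single arrays overlapped, with 574 to 716 in DBA/2J, 502 to 713 in hippocampus_129S1SvImJ and 508 to 604 in C3H/HeJ. The sums were not computed without Rgs5, so the order of the strains may rest on that gene. The part of vessel cells in these results was not tested.

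Of 5 tested lymphocyte and antigen-presenting cell markers 0 passed in limma, 2 with the block. Of 9 choroid plexus and meninges markers 1 passed (4 with the block), Ttr, from 6.11 in C57BL/6J to 8.46 in C3H/HeJ. Of 12 hippocampal neuron markers 4 passed (33.3%), and 8 did with the block (66.7%). The 4 were Syt1, Camk2a, Neurod1 and Nrgn. Camk2a, a kinase of excitatory neurons, was lowest in DBA/2J (8.02 ± 0.34) and highest in hippocampus_129S1SvImJ (9.93 ± 0.19), and its part in the class I result was not tested.

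Among 6734 other named probe sets, the genes most like these in their strain means were found by Pearson's r over the 8 strains, which share pools and arrays. The closest to H2-K1 93120_f_at were Rgs5 (r = 0.958), Tpi1 (0.933) and Ap2a2 (0.926), and to H2-D1 97540_f_at Rgs5 (0.956), Cuedc2 (0.945) and Ets2 (0.944). Both of these H2 probe sets had Rgs5, read here by another probe set than the one above, at the head of their list, and they correlated with each other at r = 0.97. For H2-K2 they were Atxn2 (0.953), Smc6 (0.945) and Rab7 (0.940), and for B2m Ank (0.984), Morf4l2 (0.983) and Stag2 (0.981). For H2-Eb1 they were Clk4 (0.976), Pklr (0.962) and Map3k3 (0.930). For Tap1 they were Ift46 (0.946), Ptprv (0.936) and Clec16a (0.927), and for Cd74 Ptgds (0.930), Vps53 (0.918) and Pard6a (0.896), both members having shown no difference between strains past the test.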

How the data were processed

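For each of 32 arrays the authors deposited a linear intensity per probe set, and the submitters' processing notes name MAS5. Its version and scaling target were not given in the sources used here. Gene symbols came from the platform annotation; probe sets with several symbols (396) or none (1193) stayed unnamed. The 66 control probe sets were left out, and log2 was computed after raising intensities under 1 to 1 (2.14% of values). Tests covered the brightest 60% by mean log2 value (7453 probe sets, limit at a signal of 21.3).

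The 2 arrays of a cRNA preparation were averaged to 16 values. limma 3.58.1 in R 4.3.3 (lmFit, eBayes with a trend) gave an F-test of 8 strain means and 28 contrasts, with Benjamini-Hochberg adjustment over all tested probe sets within each test and a threshold of 0.05. Haplotype tests were fitted to the 8 strain means, beside an exact two-sided permutation test of the sum of squares between haplotypes over all 420 (K side) or 560 (D side) groupings of strains. The fit was run on data simulated with the spread between preparations and none between strains of 1 haplotype. That run does not show how often the haplotype tests would find a difference in these data. Each strain being 1 pool, the p-values of the F-test across strains and of the 28 contrasts measure only technical spread. With few arrays per strain, these p-values are also imprecise. The haplotype tests use the strain as the unit. Their limma error is the spread between strains that share a haplotype, with 3 residual degrees of freedom, so the number of strains limits them.

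Array numbers mark the preparation per the series design, and the difference between preparations correlated for all 28 pairs of strains (r from 0.109 to 0.557, median 0.385), so the fit with the preparation as a block is given where it changes a call. No 2 arrays held identical values. Alternatives were other normalizations, filters and offsets, the block, single arrays with the day, no variance trend, and leaving out each array, preparation or strain.

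All probe sets of the members are named. Of each other list up to 4 genes past the F-test are named, of the genes between H2-K1 and H2-D1 up to 5, the 3 most alike genes by r, and H2-Ea. Snap25, Cd3e and Cd79b were named after their values were seen. Members and lists were chosen with earlier results of these data known, and the lists were taken from general knowledge of the genes.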

Additional observations from a re-analysis of the deposited data

Results flagged for a closer look

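Arrays that stood apart from the other 3 of their strain numbered 4 by Dixon's criterion, among 72 strain and probe set groups examined, of which chance marks about 1 in 20. H2-K1 93120_f_at read 6.42 on array 3 of C3H/HeJ, against 6.56 to 6.57 on the others, so the strain that was lowest had a still lower array. H2-K2 93714_f_at read 6.01 on array 3 of A/J, against 4.10 to 4.23. H2-Eb1 94285_at read 6.69 on array 2 of BALB/cByJ, against at most 4.5 on the others, and 5.63 on array 3 of FVB/NJ, against 5.26 to 5.27.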

How the results depend on the processing

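The F-test counted 4 of 9 member probe sets and 3 to 6 in 59 other settings (3 to 5 with 1 array or preparation left out), and the haplotype tests counted 0 in all 64 others on either side. Of the members 14 were tested with no filter, 4 in the brightest 40% and 9 otherwise. H2-D1 97540_f_at and 101886_f_at passed in all 59, with adjusted p up to 0.011 and 0.047, and H2-K1 93120_f_at in 58. B2m passed in 9 of 59: after quantile normalization or centring each array on its median, with the block, with the day, and without array 4 of BALB/cByJ, array 1 or 4 or preparation 2 of C3H/HeJ, or array 2 of FVB/NJ. H2-K1 97700_at passed only with the day (0.009).

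With the preparation as a replicate block, 1405 probe sets in place of 341 passed the F-test, 24 in place of 1 the K-side and 16 in place of 1 the D-side test. Member contrasts within a haplotype numbered 5 in place of 2. Such contrasts are counted here by the K side for all members, H2-D1 included. Single arrays with the day gave 2324 and, within a haplotype, 6, and arrays of low sense-strand control signal alone gave 748. Without the variance trend 0 passed either haplotype test or a member contrast within a haplotype. Array 2 of FVB/NJ taken with preparation 2 gave 0 on the D side and 0 such contrasts, and the brightest 40% gave 1. Leaving out 1 array, preparation or strain gave 0 to 1 on the K side and 0 to 2 on the D side; leaving out 1 array or preparation gave 260 to 380 in the F-test and 0 to 3 contrasts within a haplotype, 0 without array 2 of C3H/HeJ or preparation 1 of BALB/cByJ or of DBA/2J. The causes were not tested.

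The 3 residual degrees of freedom, 1 strain each for q and s, and 5 dim probe sets limit the haplotype tests.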
